A study of Mus musculus with 5 samples.

Results

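The genes of T cell restraint described here, Lag3, Tigit, Havcr2, Cd160, Tox, Tox2 and Entpd1, were followed through single-cell RNA-seq libraries of mouse hearts. They were chosen by gene symbol from a list of 7, and all 7 were found among the 31053 genes of the count tables. The hearts came from mice that all lacked Pdcd1, the gene of the checkpoint receptor PD-1. Control mice (Ctla4+/+Pdcd1-/-, 4 mice) kept both copies of Ctla4, which encodes another checkpoint receptor, and gave libraries 1 and 2. Disease mice (Ctla4+/-Pdcd1-/-, 10 mice), a genetic model of myocarditis under immune checkpoint inhibitors, had lost 1 copy and gave libraries 3, 4 and 5. The labels name no drug, age, day or batch. Hearts were digested, pooled and sorted for DRAQ5+DAPI- cells (nucleated and alive), so the library was the replicate, and p-values measure only the spread between pools. The sample labels number the target gene upward (Pdcd1 and Pdcd2 in controls, Pdcd1 to Pdcd3 in disease) and likewise the dye, while the series design names Pdcd1 and DRAQ5 throughout; the design's names are used here.

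Lag3, Tigit, Havcr2 (TIM-3) and Cd160 encode receptors at the surface of activated T cells and, for some, natural killer (NK) cells. Their ligands lie on antigen-presenting or target cells, and their signals dampen activation alongside PD-1 and CTLA-4. Tox and its relative Tox2 encode DNA-binding nuclear proteins, and Tox is needed for the persistent, restrained state that CD8 T cells enter under chronic antigen, called exhaustion. Entpd1 encodes CD39, an ecto-enzyme that degrades extracellular ATP on the path to adenosine.

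The 5 genes with an entry in the RefSeq promoter table (GRCm38.p6) were Tigit, Havcr2, Cd160, Tox2 and Entpd1. The 250 bases before the start are shown for the 3 receptor genes among them, because these 3 passed the test of CD8 against CD4 barcodes described further on. The RefSeq start of Tigit lies 38 bases before the GENCODE one. Capitals mark 3 motifs of T cell activation on either strand, namely the core of NFAT sites (GGAAA), AP-1 (TGANTCA) and Runx (TGTGGT). These motifs do not overlap each other in the sequences shown.
Tigit, chr16:43664185-43664434, minus strand: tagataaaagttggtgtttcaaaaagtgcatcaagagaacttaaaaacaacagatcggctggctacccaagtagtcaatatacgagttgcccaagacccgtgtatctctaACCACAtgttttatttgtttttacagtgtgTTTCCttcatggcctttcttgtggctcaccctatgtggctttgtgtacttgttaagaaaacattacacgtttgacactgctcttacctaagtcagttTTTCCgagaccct
Havcr2, chr11:46454681-46454930, plus strand: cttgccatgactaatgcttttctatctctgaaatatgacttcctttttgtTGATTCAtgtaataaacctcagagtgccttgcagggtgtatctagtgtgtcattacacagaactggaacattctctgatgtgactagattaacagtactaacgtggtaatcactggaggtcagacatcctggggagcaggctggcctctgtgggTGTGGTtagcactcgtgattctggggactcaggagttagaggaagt
Cd160, chr3:96829352-96829601, minus strand: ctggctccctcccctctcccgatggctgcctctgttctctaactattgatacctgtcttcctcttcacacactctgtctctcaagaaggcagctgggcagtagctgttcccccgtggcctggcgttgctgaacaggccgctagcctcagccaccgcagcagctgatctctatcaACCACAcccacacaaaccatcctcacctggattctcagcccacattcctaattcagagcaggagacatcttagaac
Tigit held 2 NFAT cores and 1 Runx match, Havcr2 1 AP-1 and 1 Runx match, and Cd160 1 Runx match. Tox2 and Entpd1 held 0 matches of any of the 3 motifs. Of 32851 promoters of the same length, 55.6% held the NFAT core, 6.7% AP-1 and 14.0% Runx, and a match describes the letters only.

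After filters on depth and mitochondrial share, and after removal of doublets, 37024 of 47319 barcodes were kept, between 5488 and 9477 per library, with a median of 3331 to 4532 UMIs (unique molecules) per barcode. A barcode was called a T barcode at 2 or more UMIs over Cd3d, Cd3e and Cd3g. There were 653 and 102 T barcodes in control and 152, 2633 and 646 in disease libraries, 4186 in all. Lck was detected in 64.7 to 81.0% and Cd2 in 52.0 to 75.5% of them. CD8 barcodes (a Cd8a or Cd8b1 UMI and no Cd4 UMI) numbered 460, 45, 80, 2027 and 513 in libraries 1 to 5, and CD4 barcodes 48, 22, 24, 167 and 40. Levels are given as CPM, the UMIs of a gene per 1000000 UMIs summed over 1 kind of barcode in 1 library. The CD8 sums held 248706 to 9655790 UMIs and the CD4 sums 87461 to 697387. Between 86 and 161 barcode sequences were shared by each pair of libraries (1.33 to 1.9% of the smaller one).

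Control library 2 and disease library 3 stood apart from the other libraries in CD8 make-up. Effector barcodes, with 2 or more UMIs over Ccl5, Nkg7, Gzmb and Gzmk and none over the naive T cell markers, Ccr7 and Lef1 among them, made up, among CD8 barcodes, 89.1 and 17.8% in control and 58.8, 88.3 and 86.7% in disease hearts. A Pdcd1 UMI was present in 83.0 and 20% of control CD8 barcodes and in 46.3, 83.4 and 81.5% of disease ones. Pdcd1 itself stood at 603 and 100.5 CPM in control CD8 barcodes and at 323.6, 1065 and 815.5 CPM in disease ones. Ctla4 stood at 341 and 40.2 CPM against 157, 586 and 513 CPM. The deleted parts of these genes are not given in the labels, so these counts check no label. Markers of other lineages were also counted in T barcodes: 3 or more UMIs of another lineage's markers were present in 44.4 and 11.8% of control and 23.0, 25.9 and 27.2% of disease T barcodes.

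The first comparison asked whether the 7 genes differed between the genotypes in T cells infiltrating the heart. No member passed the test in CD8 barcodes. Control library 1 lay within the range of the disease libraries for 6 of 7 members, and control library 2 lay below that range for 6 of 7, while Tox2, at 0 UMIs there, could not be placed (a floor of 3 UMIs is 12.1 CPM in that library). Lag3, a receptor that binds MHC class II, stood at 575 and 20.1 CPM (1544 and 5 UMIs) in control hearts and, in disease hearts, at 159, 831 and 785 CPM. Tigit, which binds the poliovirus receptor, stood at 985 and 101 CPM against 607, 1157 and 1022 CPM. Havcr2 stood at 127 and 8.04 CPM (340 and 2 UMIs) against 43.0, 232 and 179 CPM. For all 3 receptors, control library 2 was lowest, disease library 3 next and disease library 4 highest, and the groups overlapped.

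Cd160, a receptor for the herpesvirus entry mediator Tnfrsf14, stood at 71.1 and 28.1 CPM in control and at 37.9, 66.8 and 72.0 CPM in disease CD8 barcodes. Tox stood at 338 and 60.3 CPM against 169, 454 and 385 CPM. Entpd1 stood at 84.5 and 24.1 CPM against 32.9, 106 and 81.2 CPM. The same 2 libraries were the low ones for each of these genes, and the groups overlapped. Tox2 was sparse, with 43, 0, 4, 91 and 26 UMIs in libraries 1 to 5, or 16.02 and 0 CPM against 10.1, 9.42 and 9.18 CPM.

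**Figure D1:**
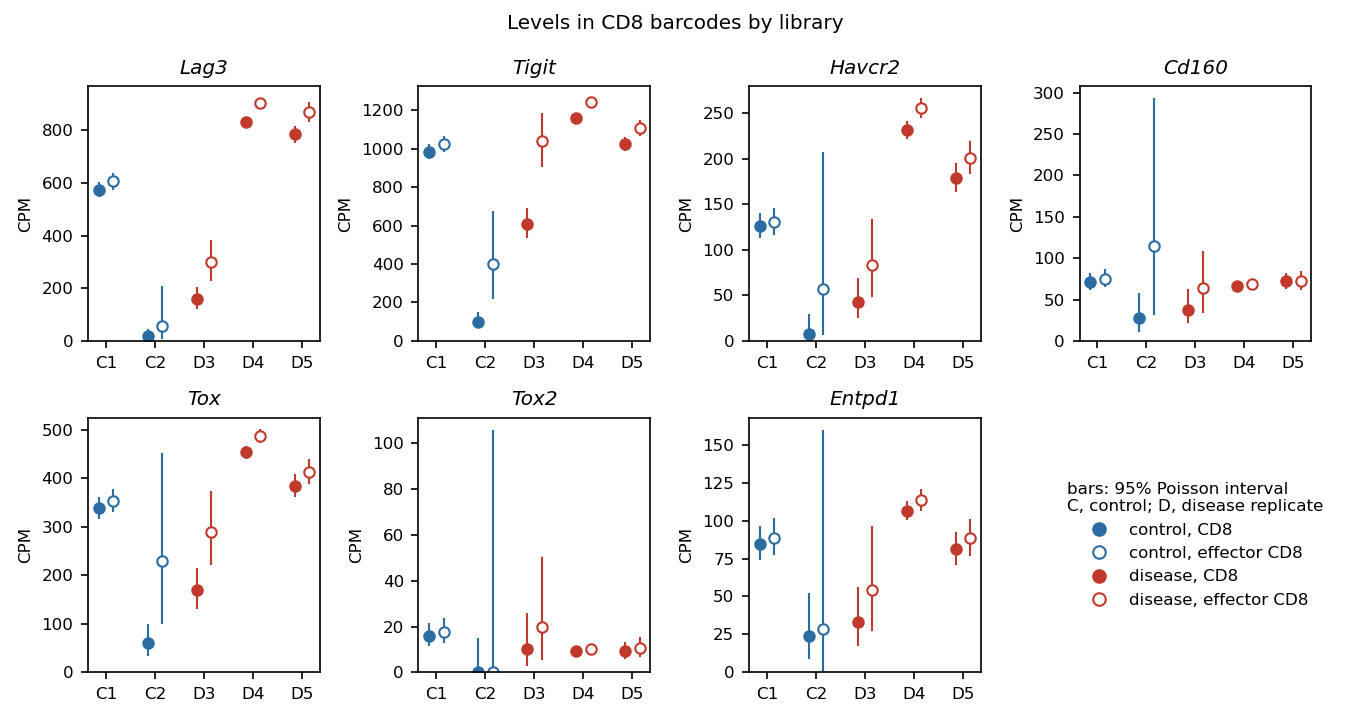
Level of each of the 7 genes (CPM) in all CD8 barcodes (filled) and effector CD8 barcodes (open) of control libraries C1 and C2 and disease libraries D3, D4 and D5, with bars of 95% Poisson intervals. Among the filled points control library 2 is the lowest of every gene except Tox2, where its 0 UMIs (a floor of 12.1 CPM) set no order, and control library 1 lies within the disease range for 6 of the 7.

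In edgeR's quasi-likelihood fit over all 10072 genes tested, the log2 fold changes, disease over control, were 0.91 (SE 1.03) for Lag3, 0.74 (SE 0.75) for Tigit and 0.99 (SE 0.84) for Havcr2. They were 0.15 (SE 0.43) for Cd160, 0.69 (SE 0.65) for Tox, -0.37 (SE 0.64) for Tox2 and 0.33 (SE 0.55) for Entpd1, and the adjusted p-values of the 7 ran from 0.689 to 0.93. Thus 0 of 7 members passed at 0.05, and 0 had an unadjusted p under 0.05, where 3.67% of all genes tested passed. The fold change was above 0 for 6 of 7 members and for 53.9% of all genes, with a median of 0.688 against 0.065. Groups that did not overlap were found for 0 of 7 members and for 30.7% of all genes. Without control library 2, Tigit, Cd160, Tox and Entpd1 changed sign (-0.081, -0.23, -0.004 and -0.15), and without control library 1, Tigit was at 3.15 and did not pass, while Tox2 had 0 UMIs in the control library left and allows no fold. Over all T barcodes together, 0 of 7 members passed, against 4.76% of genes, and 0 had groups that did not overlap, against 31.5%; the median log2 value was 0.722 against 0.047.

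None of the genes listed around these receptors passed in CD8 barcodes. Of 18 listed ligands and partner receptors 13 were tested and 0 passed (2 with an unadjusted p under 0.05 and 3 with groups that did not overlap), with H2-Ab1 (1.79, SE 0.53, edgeR adjusted p 0.135) and H2-Aa (1.52, SE 0.46, adjusted p 0.145), the MHC class II chains that Lag3 binds, lowest in p. Both are genes of antigen-presenting cells, and the summed macrophage markers in CD8 barcodes stood at 413 and 72.4 CPM in control hearts and, in disease hearts, at 784, 931 and 278 CPM; their part in these values was not tested. Of 6 genes of the adenosine pathway 4 were tested and 0 passed (0 and 0 on these counts). Of 30 genes of the Tox family and exhaustion 28 were tested and 0 passed (1 and 1), with Nfatc2 (-1.20, SE 0.47, adjusted p 0.291), which encodes an NFAT factor, and the costimulator Icos (1.47, SE 0.69, adjusted p 0.423) lowest in p.

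Because libraries differed in their share of effector barcodes, the same comparison was made, after the first results were seen, within effector CD8 barcodes alone (410, 8, 47, 1790 and 445 in libraries 1 to 5). Tigit stood at 1022 and 402 CPM in control hearts and, in disease hearts, at 1037, 1241 and 1107 CPM. Lag3 stood at 606 and 57.4 CPM against 300, 902 and 870 CPM, and Tox at 354 and 230 CPM against 290, 487 and 414 CPM. Control library 2, with 8 barcodes that held 2 Lag3, 14 Tigit and 8 Tox UMIs, again held the lowest value of all 3 genes, and the groups did not overlap for Tigit. The share of effector barcodes with a Tigit UMI lay the other way without thinning (92.2 and 100% in control against 87.2, 89.2 and 91.9% in disease), and the groups overlapped after thinning to 1000 UMIs (61.2 and 50% against 53.2, 63.8 and 62.6%). Groups did not overlap for 2 of 7 members, Tigit and Cd160 (75.3 and 115 CPM against 63.9, 68.9 and 72.2 CPM, the lower values in disease), and for 31.9% of all genes.

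None of the 7 passed in effector CD8 barcodes, where 6.05% of all genes did. Log2 fold changes were 0.86 (SE 0.61, edgeR adjusted p 0.66) for Lag3, 0.69 (SE 0.46, adjusted p 0.628) for Tigit and 0.80 (SE 0.51, adjusted p 0.599) for Havcr2. Without disease library 3 Lag3 was at 1.46 (adjusted p 0.00801) and Havcr2 at 1.34 (adjusted p 0.0499), and both passed. That fit still held control library 2, with 8 barcodes and 2 UMIs (57.4 CPM) of each gene. Control library 1 stood at 606 CPM for Lag3, against 902 and 870 CPM in disease libraries 4 and 5. For Havcr2 it stood at 131 CPM, against 256 and 201 CPM. Of the related genes tested (10 ligands and partners, 4 adenosine and 28 exhaustion genes), H2-Aa alone passed, at 2.12 (SE 0.61, adjusted p 0.0436). It is a gene of antigen-presenting cells, and the part of their RNA in this value was not tested.

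In CD4 barcodes Lag3 stood at 243 and 0 CPM in control hearts and, in disease hearts, at 183, 399 and 623 CPM. Tigit stood at 489 and 91.5 CPM against 395, 675 and 795 CPM, and Tox at 195 and 68.6 CPM against 173, 284 and 235 CPM. Control library 2 was again the lowest for each, and the groups overlapped. Only 3 members had enough counts for the test and 0 passed, against 3.43% of all genes. The log2 fold change of Lag3 was 1.46 (SE 0.93, edgeR adjusted p 0.557), and it passed when every gene with a UMI was tested (1.69, adjusted p 0.0432).

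To ask how many T cells carried each transcript, each CD8 barcode was thinned to 1000 UMIs. Lag3 was then detected in 38.5 and 0% of control CD8 barcodes and in 12.5, 48.5 and 43.0% of disease ones, and Tigit in 57.5 and 8.89% against 40, 62.9 and 57.6%. Havcr2 was detected in 12.3 and 0% against 7.5, 19.3 and 14.3%, and Tox in 28.2 and 8.89% against 13.8, 35.7 and 32.6%. Cd160 was at 5.91 and 6.67% against 6.25, 5.64 and 5.47%, and Entpd1 at 9.19 and 2.22% against 1.25, 10.2 and 7.23%. In control library 2, 0 of 45 barcodes allows, at 3 counts of the total, a share with a UMI of up to 6.67%. Without thinning, Lag3 was found in 76.7 and 11.1% against 35, 77.2 and 73.7%, and Tigit in 88.7 and 26.7% against 60, 85.6 and 87.9%. Thinned or not, control library 2 held the lowest share of both. After thinning groups overlapped for every member, and exact permutation tests (two-sided) gave p between 0.3 and 0.9, where the smallest possible p is 0.1. In B barcodes thinned alike, which should lack these receptors, Lag3 was detected in 0 to 1.65% and Tigit in 0 to 1.32%. Havcr2, Cd160 and Tox were detected in 0% of them in all 5 libraries. B barcodes had a median of 2374 to 3070 UMIs, and CD8 barcodes 4017 to 5232. The B gate left out barcodes with a Cd3 UMI, and the CD8 gate left out no markers of other lineages. The B shares are thus no like-for-like background.

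The second comparison set CD8 against CD4 barcodes of the same library. Cd160, Havcr2 and Tigit were higher in CD8 barcodes. Cd160 stood at 6.39, 0, 0, 1.43 and 6.36 CPM (2, 0, 0, 1 and 1 UMIs) in the CD4 barcodes of libraries 1 to 5. Havcr2 stood at 32.0, 0, 19.2, 63.1 and 6.36 CPM there (10, 0, 2, 44 and 1 UMIs). Both lay below the CD8 value in libraries 1, 3, 4 and 5. In control library 2 the floor of the CD4 sum (34.3 CPM) lay above the CD8 values of Cd160 and Havcr2 (28.1 and 8.04 CPM), so no order can be read there. The log2 fold changes, CD8 over CD4, were 2.20 (SE 0.30, edgeR adjusted p 0.000467) for Havcr2 and 0.73 (SE 0.16, adjusted p 0.0187) for Tigit. Cd160 was fitted at 4.41 (SE 0.45, adjusted p 4.99e-05) but entered the test through its CD8 counts alone, so no exact fold can be read. Its CD8 values in libraries 1, 3, 4 and 5 were 71.1, 37.9, 66.8 and 72.0 CPM. They lay above CD4 floors of 9.59, 28.9, 4.3 and 19.1 CPM. The 3 that passed were of 6 tested, and 2.22% of all genes were higher in CD8 barcodes at this threshold. The median over the 6 was 0.85 against 0.05 for all genes. Without a library block the calls of Havcr2 and Tigit were lost (edgeR adjusted p 0.518 and 0.999). The summed macrophage markers stood at 991, 34.3, 125, 2266 and 1113 CPM in the CD4 barcodes of libraries 1 to 5 and at 413, 72.4, 784, 931 and 278 CPM in the CD8 ones. The summed markers of NK cells, which also carry Cd160 and Tigit, stood at 93.9, 48.2, 37.9, 150 and 111 CPM in the CD8 barcodes and were at 0 in the CD4 ones except for 1.43 CPM in disease library 4, and their part in these calls was not tested. Without T barcodes holding markers of lineages other than NK, Cd160, Havcr2 and Tigit still passed, and Lag3 (0.91, adjusted p 0.0225) and Entpd1 (1.48, adjusted p 0.0258) passed as well.

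Lag3 (0.79, SE 0.23, edgeR adjusted p 0.0818), Tox (0.61, SE 0.18, adjusted p 0.0812) and Entpd1 (0.91, SE 0.28, adjusted p 0.105) did not pass. In disease library 3 each of the 3 had the lower value in CD8 barcodes (159 against 183 CPM for Lag3, 169 against 173 CPM for Tox and 32.9 against 48.1 CPM for Entpd1), and without that library all 3 passed. Tox was also lower in the CD8 barcodes of control library 2 (60.3 against 68.6 CPM). The CD4 sum of disease library 3 held mural markers at 885.5 CPM, against 3.2 to 19.1 CPM in the other CD4 sums and 22.8 CPM in its own CD8 sum, and their part in these values was not tested. Tigit did not pass without control library 1 (adjusted p 0.0825) or without disease library 4 (adjusted p 0.116). Whether the CD8 to CD4 difference depended on genotype was tested with an interaction term: 0 of 6 members passed, against 0.0559% of all genes, and Lag3 had an interaction of -0.98 (SE 0.45, unadjusted p 0.0472, edgeR adjusted p 1).

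Of the partner receptors, Cd226 (1.17) and Cd96 (0.91), which share ligands with Tigit, were higher in CD8 barcodes, 2 of 7 tested. Of 2 adenosine genes tested, Nt5e, encoding the enzyme CD73 that acts after CD39, was lower (-2.0, edgeR adjusted p 0.00341). Of 24 genes of the exhaustion list 7 were higher and 2 lower, where 2.38% of all genes were lower. The 4 with the largest differences were Gzmb (4.68), a cytotoxic protease, Foxp3 (-3.403), the factor of regulatory T cells, Eomes (3.399), a factor of cytotoxic cells, and Slamf6 (-1.93), a surface receptor of stem-like T cells. Only 13 CD4 barcodes held a Foxp3 UMI, and no library held 10, so regulatory cells were not tested.

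**Figure D2:**
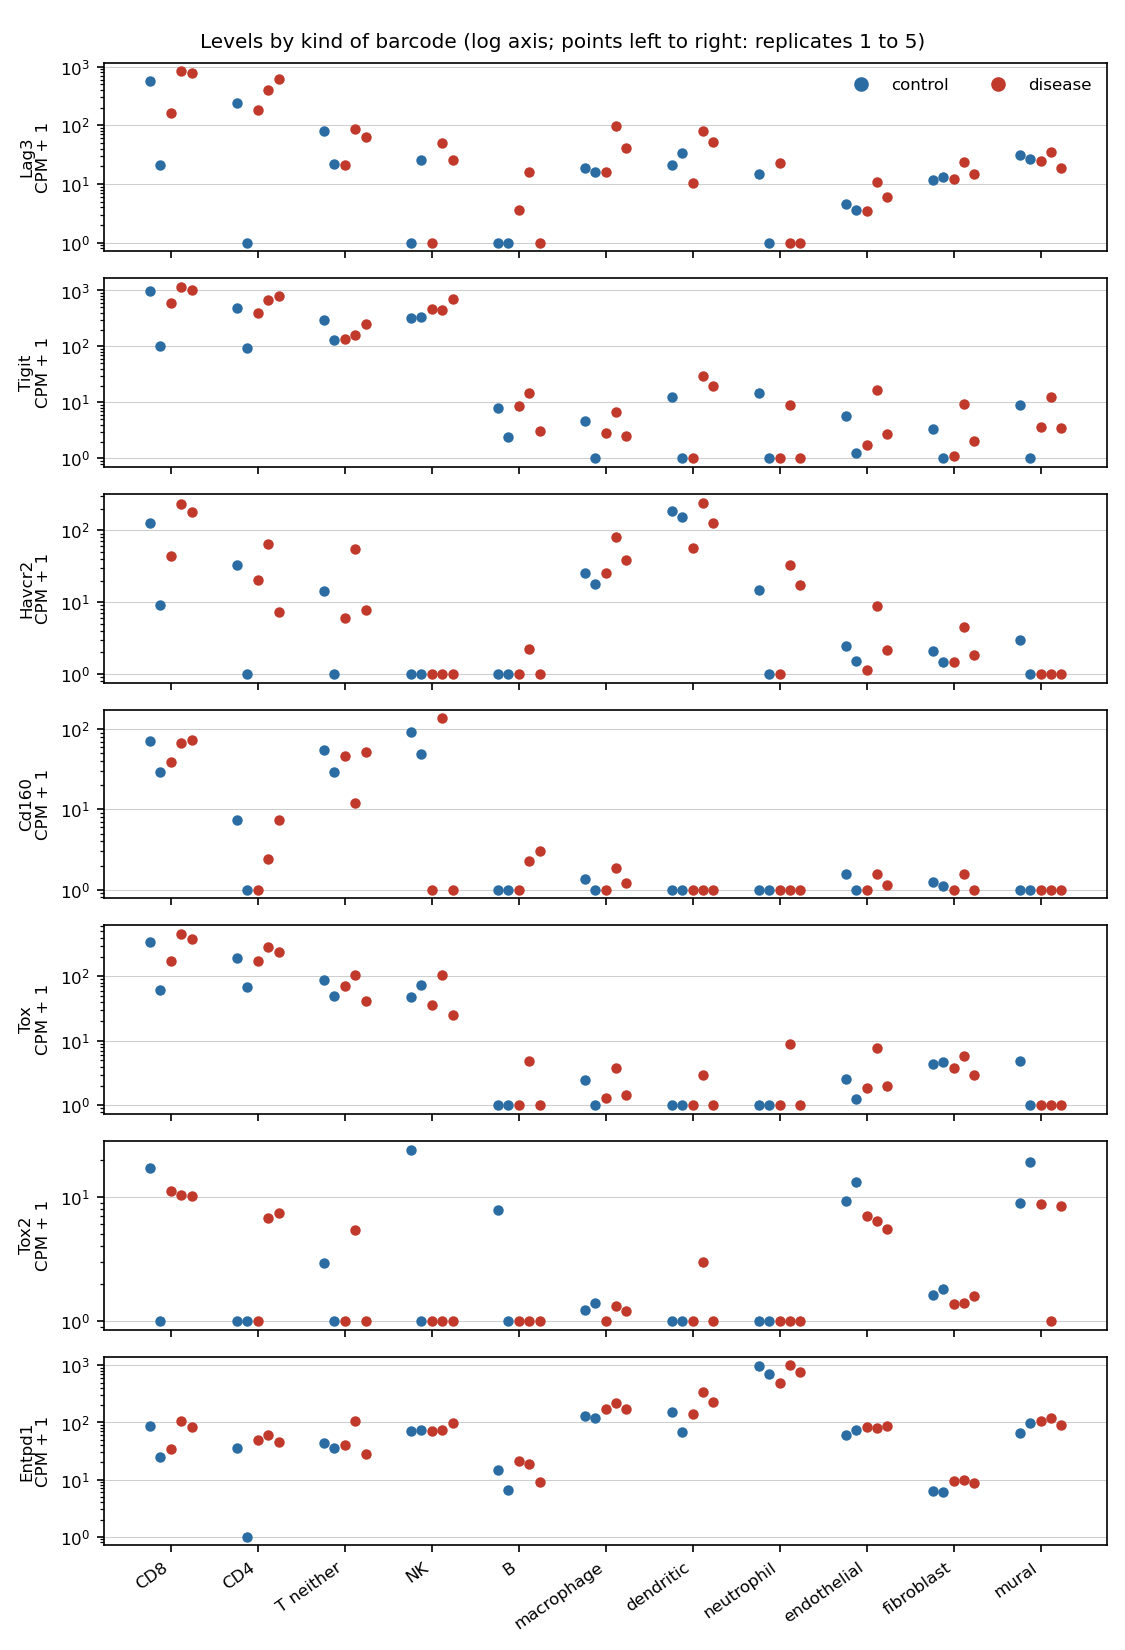
Levels of the 7 genes (CPM + 1, log axis) by kind of barcode, with 1 point per library from control 1 on the left to disease 5 on the right. Tigit and Tox lie highest in T and NK barcodes, Havcr2 overlaps between dendritic and CD8 barcodes, and Entpd1 lies highest in neutrophil barcodes.

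The third comparison asked which CD8 cells held the transcripts. Naive-like CD8 barcodes (a UMI of those naive T cell markers and under 2 effector UMIs) numbered 8, 12, 9, 18 and 13 in libraries 1 to 5. Lag3 was at 0 there in every library except disease library 4, which held 2 UMIs. Havcr2 was likewise at 0 except for 3 UMIs in disease library 4. Tox had 2, 1, 2, 7 and 4 UMIs there, of which the first 3 values lie under the floor of 3 UMIs.

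Disease libraries 4 and 5 held enough barcodes of both kinds for a fit, with 1 residual degree of freedom. The naive-like sums of both together held 2 Lag3, 5 Tigit, 3 Havcr2 and 11 Tox UMIs of 139283, so the folds rest on few counts. The pooled ratio, effector over naive-like, was 62.3 for Lag3 (95% counting interval 17.2 to 515) and 11.3 for Havcr2 (3.86 to 54.9). The 2 naive-like UMIs of Lag3 lie under the floor of 3 UMIs, so its exact fold cannot be read. Without disease library 4, Lag3 was at least 20.4-fold and Havcr2 at least 4.70-fold higher at that floor. Effector over naive-like log2 fold changes were 5.91 (SE 0.59, edgeR adjusted p 5.42e-05) for Lag3, 4.99 (SE 0.43, adjusted p 1.51e-05) for Tigit, 3.39 (SE 0.69, adjusted p 0.0139) for Havcr2 and 2.48 (SE 0.41, adjusted p 0.00331) for Tox. These 4 of 7 members passed, against 2.27% of all genes. The calls of Havcr2 and Tox were lost in DESeq2 (adjusted p 0.112 and 0.0527) and without a library block (0.145 and 0.0651). Cd160 did not pass (adjusted p 0.07). It had 747 of 10727154 effector UMIs against 0 of 139283, at least 3.23-fold at a floor of 3 UMIs over both libraries, and at least 1.69-fold without disease library 4 and 1.59-fold without disease library 5. Tox2 lay under that floor. Of 26 exhaustion genes 11 were higher, Gzmb and Gzmk by the gate itself, with the costimulator Tnfrsf9 at 6.84. The 1 that was lower, against 0.955% of all genes and named after its value was seen, was Tcf7, a factor of naive and stem-like T cells, at -4.94. Of 9 ligands and partners Lgals3 (4.37), a galectin that binds Lag3, and Hmgb1 (1.59), a ligand of Havcr2, were higher.

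Cycling effector barcodes carried 2 or more UMIs over Ccnb2, Cdk1, Birc5, Top2a and Mki67, and 226 of 2700 effector barcodes did. In the 3 libraries with enough of them (control 1, disease 4 and disease 5), Tigit stood at 779, 964 and 769 CPM in cycling and at 1070, 1286 and 1177 CPM in other effector barcodes. Lag3 stood at 532, 702 and 860 CPM against 621, 934 and 872 CPM. Both genes were lower in cycling barcodes in all 3 libraries, and Lag3 differed little in disease library 5. Tigit was at -0.53 on the log2 scale (SE 0.07, edgeR adjusted p 0.000389), 1 of 7 members, against 6.40% of all genes lower at this threshold. Its call was lost without a library block (adjusted p 0.237). Lag3 (-0.27, SE 0.09, adjusted p 0.0619) and Tox (-0.27, SE 0.09, adjusted p 0.0549) did not pass. Cycling barcodes were deeper, with a median of 7058 to 8975 UMIs in these libraries against 3810 to 5006, and the part of depth in these values was not tested.

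The fourth comparison followed the members with Pdcd1, the targeted gene. CD8 barcodes with a Pdcd1 UMI were set against CD8 barcodes without one in the 4 libraries with enough of both (control 1 and disease 3, 4 and 5). They numbered 382, 37, 1691 and 418 with a Pdcd1 UMI and 78, 43, 336 and 95 without. Lag3 stood at 618, 261, 910 and 879 CPM in those with a Pdcd1 UMI and at 290, 63.7, 306 and 290 CPM in the others. Tigit stood at 1059, 1050, 1264 and 1121 CPM against 489, 191, 439 and 499 CPM. Cd160 stood at 78.0, 52.3, 72.8 and 80.2 CPM against 25.6, 24.5, 26.4 and 28.8 CPM. Each of the 3 was higher with a Pdcd1 UMI in 4 of 4 libraries and the values did not overlap for Tigit and Cd160.

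The log2 fold changes were 1.35 (SE 0.14, edgeR adjusted p 1.66e-05) for Lag3, 1.33 (SE 0.16, adjusted p 7.34e-05) for Tigit, 1.32 (SE 0.19, adjusted p 0.000297) for Cd160, 0.96 (SE 0.17, adjusted p 0.00188) for Havcr2 and 0.91 (SE 0.14, adjusted p 0.000528) for Tox. Entpd1 did not pass (0.23, SE 0.21, adjusted p 0.539), with 79.7 against 117 CPM in control library 1 and 89.4 against 37.7 CPM in disease library 5. These 5 of 6 members tested were higher, against 6.63% of all genes. The calls of Lag3, Havcr2 and Tox were lost without a library block (adjusted p 0.192, 0.364 and 0.155). Median depth was 5333, 4146, 4170 and 4573.5 UMIs with a Pdcd1 UMI and 4148, 4477, 3075.5 and 4056 UMIs without, and its part in the calls was not tested. Of 28 exhaustion genes tested, 9 were higher, Pdcd1 by the gate itself, and 4 were lower, where 9.96% of all genes were lower, with Klrg1 (-3.81), a receptor of terminal effector cells, and Tcf7 (-2.97) among them. The adenosine receptor Adora2a was higher (1.14, adjusted p 0.0218).

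The fit was repeated, after these values were seen, within the effector CD8 barcodes of the same 4 libraries. They numbered 359, 33, 1574 and 386 with a Pdcd1 UMI and 51, 14, 216 and 59 without. Their median depth in the 4 libraries was 5269, 4051, 4126 and 4519 UMIs with a Pdcd1 UMI and 3597, 2838.5, 2552 and 3441 UMIs without, and the part of depth in the calls was not tested. Lag3 stood at 624, 310, 938 and 911 CPM with a Pdcd1 UMI and at 420, 267, 515 and 505 CPM without. Tigit stood at 1054, 1150, 1292 and 1140 CPM against 696, 679, 695 and 812 CPM. Cd160 stood at 79.4, 58.1, 71.6 and 75.6 CPM against 33.4, 82.2, 39.7 and 42.1 CPM, lower with a Pdcd1 UMI in disease library 3 alone. The log2 fold changes were 0.76 (SE 0.15, edgeR adjusted p 0.00175) for Lag3, 0.74 (SE 0.13, adjusted p 0.000881) for Tigit and 0.88 (SE 0.24, adjusted p 0.0231) for Cd160. Tox did not pass (0.43, SE 0.16, adjusted p 0.112). The 3 that passed compare with 2.36% of all genes, and 0 passed without disease library 4. The call of Cd160 was also lost without control library 1 (adjusted p 0.161), without disease library 5 (0.0918), in DESeq2 (0.166), at 3 or more Cd3 UMIs (0.146) and without T barcodes holding other lineages' markers (0.376). Without a library block the calls of Lag3, Tigit and Cd160 were all lost (adjusted p 0.607, 0.0782 and 0.425).

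**Figure D3:**
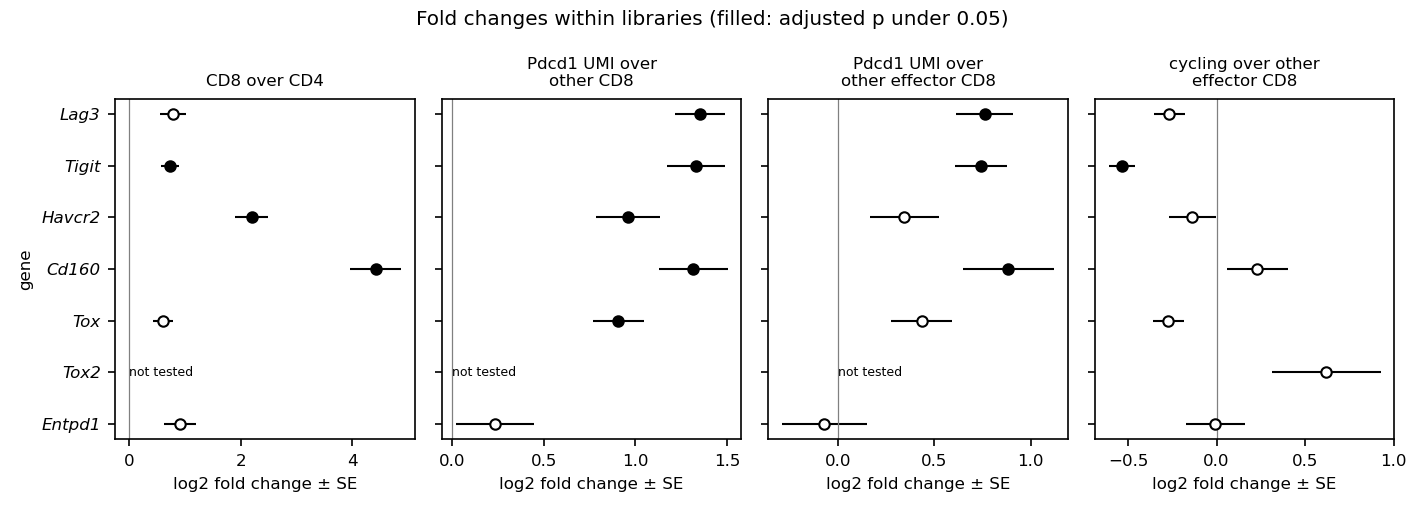
Log2 fold changes of the members (each x axis on its own scale) in 4 comparisons made within libraries, with bars of 1 SE and filled points where the edgeR adjusted p was under 0.05. Cd160 stands at 4.41 in CD8 over CD4 barcodes, where 4 CD4 UMIs over all libraries allow no exact fold. Lag3 and Tigit stand at 1.35 and 1.33 with a Pdcd1 UMI and at 0.76 and 0.74 among effector barcodes. Tigit stands at -0.53 in cycling barcodes.

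The members were also counted together in single barcodes. In CD8 barcodes thinned to 1000 UMIs, 2 or more of the 7 genes were detected in 48.8 and 6.67% of control and in 22.5, 60.3 and 51.6% of disease barcodes (difference of means 17.0 points, two-sided exact permutation p 0.5; -4.03 points without control library 2). The mean number of members detected was 1.53 and 0.267 against 0.812, 1.83 and 1.61. Within effector barcodes the share with 2 or more was 52.6 and 12.5% against 40.4, 64.1 and 57.9%. In CD4 barcodes it was 27.1 and 0% against 20.8, 25.6 and 32.5%.

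**Figure D4:**
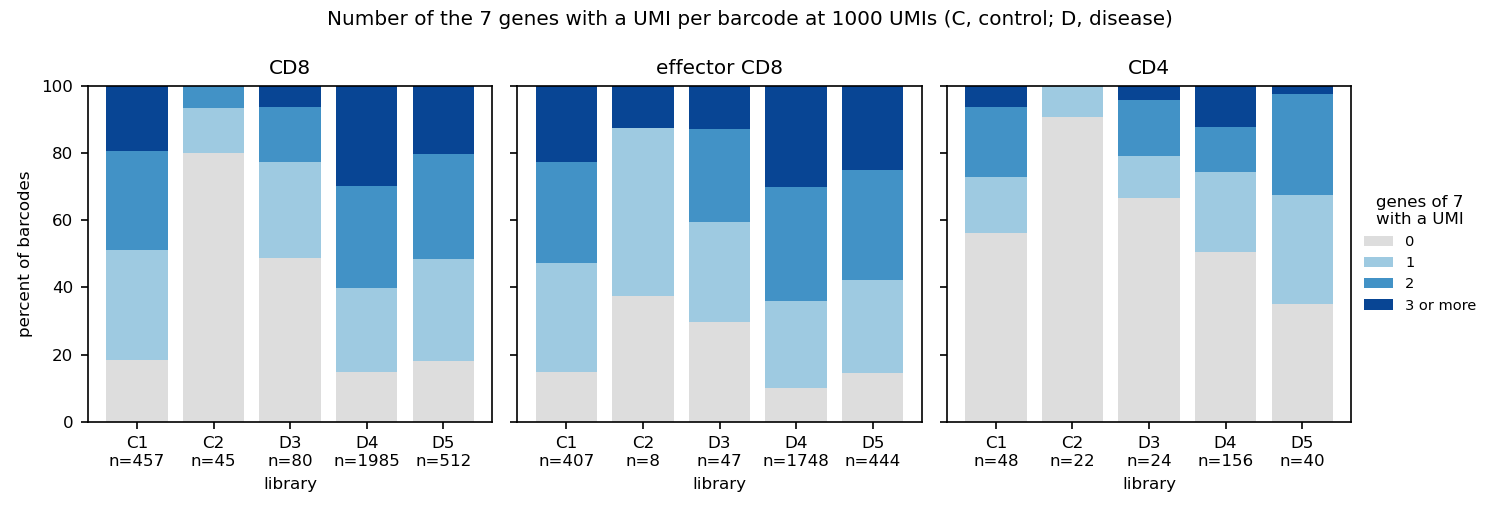
Percent of CD8, effector CD8 and CD4 barcodes, thinned to 1000 UMIs, in which 0, 1, 2 or at least 3 of the 7 genes were detected, as stacked bars for each library. Control library 2 has the smallest share with 2 or more genes in each panel.

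Pairs of genes were compared with the share of barcodes that independent detection in the same library would give, in the effector CD8 barcodes of control library 1 and disease libraries 4 and 5. Havcr2 and Entpd1 were found together 1.90, 1.28 and 1.46 times as often as the product of their shares. Tox and Entpd1 were found together 1.47, 1.16 and 1.46 times as often, and Havcr2 and Tox 1.22, 1.21 and 1.31 times. Lag3 and Tigit stood at 1.03, 1.08 and 1.101. Such a ratio cannot exceed 1 over the larger share, so pairs of common genes are held nearer to 1 and the pairs cannot be ranked. Cd160 and Entpd1 had no common direction, at 1.62, 0.934 and 0.552. At 1000 UMIs, means of 7.84 and 4.94% of disease effector barcodes held Entpd1 and Cd160, so few could hold both. These ratios describe the barcodes of 3 libraries and were not tested.

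Ordered by median CPM over the 5 libraries, CD8 barcodes came first for 5 of the 7 genes, though for Cd160 above NK in only 2 of 5 libraries. For Lag3 the order was CD8 (575), CD4 (243), T barcodes with neither co-receptor (61.6), dendritic (33.1), mural (25.9), NK (24.2) and macrophage (18.0), with all other kinds lower. Of these neighbours, each pair overlapped over the libraries. NK barcodes held 8 Lag3 UMIs over all libraries and lay above macrophage barcodes in 1 of 5, so the place of NK cannot be read. For Tigit the order was CD8 (985), CD4 (489), NK (447), T barcodes with neither co-receptor (160) and dendritic (11.3). NK lay above T with neither, and T with neither above dendritic, without overlap.

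For Tox the order was CD8 (338), CD4 (195), T with neither (70.1) and NK (46.1), where the NK values rest on 1 to 13 UMIs per library, followed by fibroblast barcodes (3.32). For Cd160 it was CD8 (66.8), NK (48.3), T with neither (45.05) and CD4 (1.43), where the CD4 values rest on 0 to 2 UMIs per library. The NK barcodes held 4, 2, 0, 17 and 0 Cd160 UMIs in libraries 1 to 5. In disease library 4 NK stood at 136 CPM against 66.8 CPM in CD8 barcodes. In disease libraries 3 and 5 the NK floors (106 and 73.6 CPM) lay above the CD8 values (37.9 and 72.0 CPM), so no order can be read there. Tox2 had a median under 10 in every kind, with CD8 (9.42), mural (7.83) and endothelial (5.997) first, and endothelial lay above fibroblast barcodes without overlap. Havcr2 was led by dendritic (155) over CD8 (127) and macrophage barcodes (24.4), all overlapping, and Entpd1 by neutrophil (763) over macrophage barcodes (169), which did not overlap.

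Other lineages also gave the background. NK barcodes (69 in all, with no Cd3 UMI) held Tigit at 323, 338, 459, 447 and 711 CPM in libraries 1 to 5, and Lag3 at 0, 24.2, 0, 47.9 and 24.5 CPM. Havcr2 was at 0 UMIs in the NK barcodes of all 5 libraries. In control library 2 and disease libraries 4 and 5, which held at least 10 NK barcodes, Lag3 was higher in CD8 barcodes by 4.07 (SE 0.50, edgeR adjusted p 0.000217) and Tox by 2.15 (SE 0.45, adjusted p 0.0125) on the log2 scale. Havcr2 was at least 14.9-fold higher, from 2745 of 12737066 UMIs against 0 of 207398 at a floor of 3 UMIs over the 3 libraries, and at least 4.52-fold without disease library 4. In control library 2 alone the CD8 value of Havcr2 (8.04 CPM) lay under the NK floor (72.5 CPM), and Lag3 (20.1 against 24.2 CPM, from 5 and 1 UMIs) and Tox (60.3 against 72.5 CPM, from 15 and 3 UMIs) were lower in CD8 than in NK barcodes. Lag3, Tox and Havcr2 passed, 3 of 6 members, against 3.76% of all genes. Havcr2 entered the test through its CD8 counts alone, so its call adds nothing to the counts given. Tigit (0.50, SE 0.40, adjusted p 0.661) and Cd160 (-0.36, SE 0.58, adjusted p 0.86) did not pass. Without disease library 4 or without disease library 5, Lag3 and Havcr2 had too few counts to be tested, and Tox did not pass (2.14, adjusted p 0.2, and 1.64, adjusted p 0.516). In DESeq2 Lag3 alone passed.

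Against macrophage barcodes of the same library, T barcodes were higher in 6 of 7 members, as 36.6% of all genes were. The log2 fold changes were 8.07 for Tigit (edgeR adjusted p 1.1e-08), 7.80 for Tox, 6.98 for Cd160, 4.97 for Tox2, 3.45 for Lag3 and 1.41 for Havcr2 (adjusted p 0.00207). In control library 2 Havcr2 was lower in T barcodes (4.18 against 16.9 CPM, from 2 and 42 UMIs). Tox2 had 0 UMIs in T barcodes there and 1 in macrophage barcodes. The call of Havcr2 was lost without a library block (adjusted p 0.0947). Entpd1 was lower in T barcodes, as 27.7% of all genes were, at -1.30 (SE 0.19, adjusted p 9.92e-05). Havcr2 is also a receptor of dendritic cells, and it stood at 183 and 155 CPM in the dendritic barcodes of the controls and at 56.4, 242 and 123.5 CPM in those of the disease libraries (90 barcodes in all).

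Entpd1 had its highest levels outside T cells. In neutrophil barcodes it stood at 992 and 718 CPM in control hearts and, in disease hearts, at 496, 1000 and 763 CPM, above every other kind of barcode in all 5. Macrophage barcodes held 128 and 121 CPM against 169, 216 and 171 CPM, and endothelial barcodes 59.0 and 73 CPM against 83, 79.1 and 86.7 CPM. Fibroblast barcodes held 5.4 and 5.13 CPM against 8.4, 8.92 and 7.77 CPM. In each of the last 3 kinds every disease library lay above both controls. Over the better counted genes, log2 fold changes between genotypes fell as the GC percent of the transcript start rose. Spearman correlations were -0.321, -0.365 and -0.363 in macrophage, endothelial and fibroblast barcodes, and -0.321 in CD8 ones. That GC percent was 48.4 for Entpd1 and 63.7 for Tox2, against a median of 52.9 over all genes. The cause of this trend was not tested.

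None of these differences of Entpd1 between genotypes passed the test. In macrophage barcodes Entpd1 was at 0.68 (SE 0.25, edgeR adjusted p 0.21), in endothelial barcodes at 0.28 (SE 0.13, adjusted p 0.23) and in fibroblast barcodes at 0.62 (SE 0.15, adjusted p 0.0553) on the log2 scale, disease over control. With called doublets kept, Entpd1 passed in fibroblast barcodes (0.60, adjusted p 0.0473). Of all genes, 6.56, 11.9 and 13.0% passed in macrophage, endothelial and fibroblast barcodes. Disease lay wholly above control for 13.4% of genes in macrophage and 25.2% in fibroblast barcodes, and groups did not overlap in either direction for 49.5% of genes in endothelial ones. Tox2 in endothelial barcodes was lower in disease in every library (8.2 and 12.3 CPM against 5.997, 5.4 and 4.51 CPM), at -1.001 (SE 0.25, adjusted p 0.0627); when every gene with a UMI was tested it passed (-1.02, adjusted p 0.0337).

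Macrophage barcodes also held Lag3, at 18.0 and 14.9 CPM in control hearts and, in disease hearts, at 15.1, 94.7 and 39.5 CPM, and Havcr2 at 24.3 and 16.9 CPM against 24.4, 78.6 and 37.6 CPM. Disease library 4, which had the most T barcodes (27.8% of its barcodes), was highest for both genes, and the part of T cell RNA in these values was not tested. Tigit stood in macrophage barcodes at 3.63 and 0 CPM against 1.81, 5.83 and 1.495 CPM. Lag3 (1.76, SE 0.77, edgeR adjusted p 0.302) and Havcr2 (1.31, SE 0.57, adjusted p 0.296) did not pass. Both passed when every gene with a UMI was tested (adjusted p 0.0123 and 0.0244), and Lag3 passed without disease library 3 (2.16, adjusted p 0.0389).

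A low level of Lag3 was counted in fibroblast barcodes (10.6, 12.3, 11.2, 22.3 and 13.7 CPM) and mural barcodes (29.6, 25.9, 23.5, 34.4 and 17.6 CPM) of libraries 1 to 5. Lag3 lies at chr6:124904361-124911705 on the minus strand of GRCm38 (GENCODE M21), and Ptms ends 1975 bases upstream on the same strand. Ptms stood at 113 to 406 CPM in fibroblast and 156 to 595 CPM in mural barcodes, and at 15.5 to 83.4 CPM in T barcodes. The part of Ptms transcripts in these Lag3 counts was not tested. The remaining members lie at chr16:43648867-43664146 (Tigit, minus), chr11:46454935-46481255 (Havcr2, plus), chr3:96798763-96829351 (Cd160, minus), chr4:6686353-6991557 (Tox, minus), chr2:163203125-163324170 (Tox2, plus) and chr19:40612366-40741602 (Entpd1, plus). Cd160 overlaps Pdzk1 and Tox overlaps Gm11802 on the opposite strand, Entpd1 overlaps the pseudogenes Gm16027 and Gm8783 and the intronic AC166063.1 on its own strand, the antisense gene 4930442L01Rik lies 474 bases upstream of Cd160 on the strand of Cd160, and whether the counting used strand is not given in the sources used here.

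The genes whose levels followed each member most closely were ranked by Pearson correlation of log2(CPM + 10) over 49 sums of 11 kinds of barcode, leaving out genes that define a gate. For Tigit they were Tox (0.97), Sh2d2a (0.97) and Cd27 (0.97), and for Tox Cd27 (0.98), Tigit (0.97) and Sla2 (0.96). For Cd160 they were Klrc1 (0.96), Cd7 (0.93) and Gm19585 (0.90), and for Lag3 Gapdh (0.90), Grb7 (0.86) and Nrn1 (0.86). For Havcr2 they were Phf11a (0.81), Cenpk (0.80) and Pclaf (0.79), for Tox2 2900026A02Rik (0.72), Adgrg1 (0.70) and Gm43042 (0.69) and for Entpd1 Ccrl2 (0.87), Rtf2 (0.85) and Sem1 (0.83). Among the members, Tigit and Tox correlated at 0.97 and Lag3 and Tigit at 0.83, while Entpd1 had -0.185 to 0.39 and Tox2 -0.004 to 0.352 with the others. Sums of 1 library share their depth, so these values are descriptions.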

How the data were processed

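Raw UMI counts of each gene in each barcode were deposited, and per the file headers Cell Ranger 3.1.0 wrote them. The submitters' processing notes name Cell Ranger 3, Seurat 3 and the builds GRCh38 and mm10. The barcode and gene lists beside them, as deposited, hold names only. Barcodes with at least 500 UMIs, 200 genes and at most 10% mitochondrial UMIs were kept, and 1288 doublets (3.36%) called with Scrublet in scanpy 1.11.5 were removed. Kinds of barcode were set by marker UMIs. The naive marker list holds a gene that is not reported here. Other lineages had no Cd3 UMI, 3 or more marker UMIs and at least 80% of all lineage UMIs.

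UMIs were summed per library and kind and tested in R 4.3.3 with edgeR 4.0.16 (TMM, filterByExpr, quasi-likelihood F test, Benjamini-Hochberg adjustment over all genes tested). An adjusted p under 0.05 passed. Each SE is the absolute log2 value divided by the root of its F statistic. Comparisons within libraries took the library as a block and only libraries with at least 10 barcodes of both kinds; the effector comparison of genotypes took 5. Shares were compared by exact permutation in Python with 95% Wilson intervals, and intervals and floors cover counting error only. Of simulated 4-fold changes in 200 genes, 49.5% were recovered for disease over control in T barcodes (10519 genes) and 99.5% for CD8 over CD4 (5017 genes).

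The members, lists and kinds were chosen with earlier results of these data known. All 7 members were named; of each list, the 4 largest called changes or else the 2 genes of lowest p. DESeq2 1.42.0, other filters and each left-out library were alternatives.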

Additional observations from a re-analysis of the deposited data

How the results depend on the processing

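No paired analysis was possible because the genotypes share no replicate numbers, so no replicate block could be fitted between them. Of 538 recomputed log2 fold changes of members, 472 kept their direction and side of the threshold, 29 lost and 26 gained the call, and 11 reversed. Of 26 calls, 9 were tested and kept under every alternative run, and 4 others were not tested under at least 1 for want of counts. Low depth limits the CD4, NK and naive-like sums, and Foxp3 barcodes and naive-like barcodes with 1 library left out were not run. The cause of each change below was not tested.

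Leaving out 1 library moved the CD8 genotype log2 values from 0.03 to 4.82 for Lag3, 0.279 to 4.20 for Havcr2, -0.081 to 3.15 for Tigit, -0.228 to 1.05 for Cd160, -0.004 to 2.43 for Tox, -0.778 to 7.95 for Tox2 (the upper end fitted against a control at 0 UMIs, which allows no fold) and -0.148 to 1.61 for Entpd1. It moved Entpd1 in Pdcd1-UMI CD8 barcodes from -0.002 to 0.58, Tigit in CD8 over NK from -0.162 to 1.12 and Havcr2 in cycling barcodes from -0.284 to 0.074. Differences in share of CD8 barcodes ran from -3.85 to 34.7 points for Lag3, -4.04 to 44.6 for Tigit, -0.866 to 18.5 for Tox, -1.22 to 0.529 for Tox2, -2.97 to 3.99 for Entpd1 and -4.03 to 38.1 for 2 or more members. Members whose shares did not overlap ran from 0 to 5 (5 without control library 1 or disease library 3). The same share over all genes is not given for these settings, so this range says nothing particular about the members.

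With the GC trend removed Tox2 in CD8 barcodes was at 0.13, and in DESeq2 Cd160 in CD8 over NK was at 0.17. The share differences at 2000 UMIs, without thinning and with doublets kept were 2.45, 0.914 and 0.16 points for Cd160 and 0.47, 0.368 and 0.293 points for Tox2.

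Counts of members called that moved by over 1.5 times, with every gene tested, were 1 in CD4 barcodes between genotypes, 6 in CD8 over CD4, 3 in cycling effector, 2 in macrophage and 1 in endothelial barcodes. Without a library block they were 0 in CD8 over CD4, 2 in effector over naive-like, 0 in cycling, 2 in Pdcd1-UMI CD8, 0 in Pdcd1-UMI effector and 0 in CD8 over NK. DESeq2 gave 2 in effector over naive-like and 1 in CD8 over NK. Without barcodes holding other markers they were 5 in CD8 over CD4 and 4 in cycling (Tigit, Lag3, Tox and Havcr2), at 3 or more Cd3 UMIs 3 in cycling, and with doublets kept 1 in fibroblast barcodes. Leaving out 1 library gave 2 to 6 in CD8 over CD4, 0 to 3 in CD8 over NK, 0 to 2 in effector CD8 and 0 to 1 in macrophage barcodes between genotypes, and 0 to 3 in Pdcd1-UMI effector barcodes. Smaller moves included gains of Tox in Pdcd1-UMI effector barcodes with every gene tested (adjusted p 0.042) and with doublets kept (0.0482) and of Lag3 in CD8 over CD4 with doublets kept (0.0336), and the loss of Havcr2 in T over macrophage with no library block (0.0947). Over all genes, the number called ran over the alternatives from 1 to 1023 in T (512 as reported), 3 to 815 in CD8 (370), 0 to 193 in CD4 (83), 1 to 854 in effector CD8 (576), 201 to 1216 in macrophage (725), 694 to 1648 in endothelial (1436) and 770 to 1953 in fibroblast barcodes (1723) between genotypes. Within libraries it ran from 16 to 487 in CD8 over CD4 (247), 62 to 369 in effector over naive-like (243), 249 to 1809 in cycling (1403), 70 to 1672 in Pdcd1-UMI CD8 (1271), 9 to 649 in Pdcd1-UMI effector (416), 23 to 273 in CD8 over NK (187) and 0 to 61 in the interaction (3).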
